A study of Mus musculus with 18 samples.

Results

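CD8+ T cells taken straight from the mouse and sorted as 41BB+ were compared with conventional 41BB- CD8+ T cells that had been activated for 72 h in culture. The 3 libraries of unstimulated 41BB+ cells (0 h) and the 3 of activated 41BB- cells (72 h) were chosen by their labels alone and are 6 of the 18 libraries of the series. Genes on the autosomes with enough counts to test numbered 12686, of 13150 tested over all chromosomes and 55487 in the deposited count table. Both groups were wild-type C57BL/6J cells from spleen and lymph nodes, sorted from the CD8+ pool on 41BB (CD137), and the study calls the 41BB+ cells Tpam. The 0 h cells had no activation, and RNA was extracted directly after the sort. The 72 h cells were grown in IMDM with serum, on beads (Dynabeads Mouse T-Activator) that engage CD3 and CD28. The remaining libraries are 41BB- cells at 0 h and both populations at 24 h and 72 h, again in biological triplicates. Neither the age of the mice nor any pooling of animals within a triplicate is stated in the labels. The 2 groups differ in population, in activation and in time in culture at once, so these cannot be told apart in this comparison. It places cells that already carry 41BB in the animal beside late effectors grown from cells that do not.

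41BB, encoded by Tnfrsf9, belongs to the TNF receptor superfamily and costimulates T cells, which display it after their antigen receptor has been engaged. Signals through the T cell receptor and CD28 first induce transcription factors such as FOS, EGR and NR4A proteins and then MYC, which raises ribosome production, nucleotide synthesis and glycolysis. Dividing effector CD8+ T cells later load granules with granzymes and display receptors for IL-2, IL-12 and IL-18. Eomesodermin and T-bet, encoded by Eomes and Tbx21, are related T-box factors that direct memory and effector programs of CD8+ T cells.

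Each of the 6 libraries held 3394929 to 4239795 counts. The 0 h 41BB+ libraries detected 19619 to 22816 genes and the 72 h 41BB- libraries 17431 to 18621. Mitochondrial genes took 8.70% to 8.75% of the counts at 0 h and 8.84% to 9.56% at 72 h, and the nuclear RNA Malat1 took 0.339% to 0.406% and 0.127% to 0.166%. Xist, the RNA of the inactive X chromosome, had 394.7, 131.9 and 0 CPM in 0 h libraries 1 to 3 and 345.1, 197.4 and 580.0 CPM in 72 h libraries 1 to 3. Libraries numbered 3 therefore did not hold cells of the same animals at 0 h and 72 h, and X and Y genes were left out of the counts below. Levels are CPM, the gene's count per 1e+06 counts of its library. CPM is not scaled by gene length, so levels are compared between libraries and not between genes. Differences are log2 fold changes of 0 h 41BB+ over 72 h 41BB- cells, so a positive value means a higher level in unstimulated 41BB+ cells. They were tested by edgeR's quasi-likelihood F-test, and a gene was called at a Benjamini-Hochberg adjusted p under 0.05 over all 13150 genes.

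Compared with 72 h 41BB- cells, unstimulated 41BB+ cells carried higher levels of most genes of ribosome production and of the T cell receptor response. The same held for single genes such as Eomes, Crtam and Xcl1. Compared with 0 h 41BB- cells, AP-1 and early response genes were more often lower than higher. Late 41BB- effectors carried higher levels of mitotic, histone and most glycolytic genes, and of single genes such as Gzmb, Runx3, Il2ra and Vim. In all, 5214 of 12686 autosomal genes were called (41.1%), 2463 higher (19.4%) and 2751 lower (21.7%) in unstimulated 41BB+ cells. The counts of list members given below are to be read beside these shares of all autosomal genes. Differences of at least 2-fold numbered 1177 higher and 1584 lower, those of at least 4-fold 474 and 732, and those of at least 16-fold 73 and 220. The median log2 fold change was 0.96 among genes called higher, -1.17 among genes called lower and 0.04 over all autosomal genes. The 3 libraries of each group did not overlap for 2376 of the genes called higher and 2558 of those called lower. These genes were called on the same libraries and the share over all autosomal genes is not given, so the counts add no support to the calls. The same holds where libraries of single genes are said below to be apart. For 3953 of the 7472 genes not called, the 95% interval of the log2 fold change lay within 1 of 0. The share of called genes can be set beside other contrasts of the same fit that share libraries with this one. It was 39.8% for 41BB+ against 41BB- cells at 0 h, 48.1% for 72 h against 0 h in 41BB- cells, 41.1% for 72 h against 24 h in 41BB- cells, and 19.0% for 41BB+ against 41BB- cells at 72 h. In bulk RNA, fewer cells that express a gene and less RNA of it per cell cannot be told apart.

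**Figure D1:**
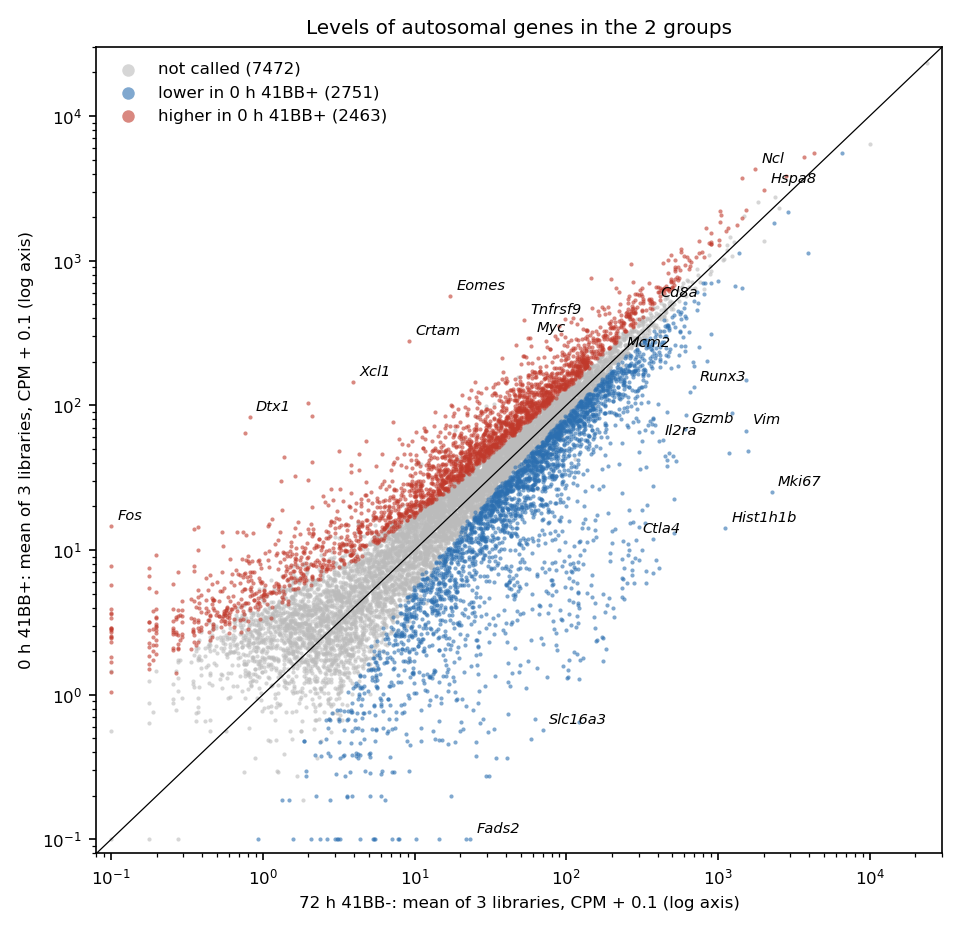
Mean CPM of 3 libraries plus 0.1 for each autosomal gene tested, 72 h 41BB- cells on the horizontal and 0 h 41BB+ cells on the vertical log axis, with 2463 genes called higher in red, 2751 called lower in blue and 7472 not called in grey. The line marks equal levels, and Eomes, Crtam and Xcl1 lie far above it while Mki67, Vim and Ctla4 lie far below.

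The sort was checked first. Tnfrsf9, which encodes the sorted marker, had 373, 421 and 374 CPM in the 0 h 41BB+ libraries and 44.0, 51.7 and 61.3 CPM in the 72 h 41BB- libraries, against a mean of 6.74 CPM in 41BB- cells at 0 h. Every 0 h 41BB+ library lay above every 72 h 41BB- library, at a log2 fold change of 2.81 (SE 0.20, edgeR adjusted p = 2.96e-10). The 41BB- cells of 72 h still lay above their own 0 h level (log2 fold change 3.02, edgeR adjusted p = 6.07e-09). Both groups expressed the CD8 coreceptor. Cd8a had 462, 580 and 478 CPM at 0 h and 438, 374 and 323 CPM at 72 h, and its call (log2 fold change 0.34, edgeR adjusted p = 0.0223) was lost without 0 h library 2 (0.191), 72 h library 2 (0.0587) or 72 h library 3 (0.167). Cd8b1, the beta chain, was lower in 41BB+ cells at 399 ± 33.7 against 617 ± 131 CPM (mean ± SD, n = 3; log2 fold change -0.71). The CD3 chains Cd3d (143 and 128 CPM) and Cd3g (364 and 365 CPM) were not called. Cd4 reached at most 1.16 CPM in any of the 6 libraries, and Foxp3, the regulatory T cell factor on the X chromosome, had means of 2.91 and 5.13 CPM and was not called (edgeR adjusted p = 0.246). Of 12 genes of CD8 T cell identity, 3 were higher and 3 lower, with a median log2 fold change of -0.00408.

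The 12 largest differences upward among protein-coding genes with separated libraries and at least 10 CPM were Fos, Dtx1, Ccr9, Pou2af1, Slfn5, AW011738, Trpm1, Xcl1, Eomes, Kcnc1, Crtam and Arhgap20. Eomes had 568, 606 and 531 CPM in 0 h 41BB+ libraries and 15, 17.1 and 19.1 CPM in 72 h 41BB- libraries. The groups were separated by a log2 fold change of 4.97 (SE 0.30, edgeR adjusted p = 9.08e-10), and 41BB- cells at 0 h had 56.6 CPM. Crtam, an adhesion receptor of activated CD8+ T and NK cells, had 285, 279 and 274 CPM against 10.3, 8.72 and 8.26 CPM. Its 3 libraries of each group hardly varied, and the log2 fold change was 4.85 (SE 0.20, edgeR adjusted p = 4.32e-17). Xcl1, a chemokine that attracts cross-presenting dendritic cells, had 166, 127 and 142 CPM against 7.90, 1.45 and 2.12 CPM (log2 fold change 5.14), and 41BB- cells passed through a mean of 114 CPM at 24 h. Pou2af1, a coactivator of octamer-binding factors best known in B cells, had 104, 95 and 115 CPM against 3.95, 0.291 and 1.42 CPM (log2 fold change 5.66). It was at 6.91 CPM in 41BB- cells at 0 h and 8.83 CPM at 24 h. Dtx1, a Notch pathway ubiquitin ligase (82.4 and 0.72 CPM), and Ccr9, a gut-homing receptor (64 and 0.66 CPM), were present in 41BB- cells at 0 h as well, with 235 and 99.9 CPM.

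The 12 largest differences downward were Fads2, Socs2, Fut7, Ifitm1, Lgals3, Mpp2, Slc16a3, Mt1, Scd1, Iqgap3, Mxd3 and Nusap1. Fads2, a fatty acid desaturase, had 0 counts in all 3 unstimulated 41BB+ libraries and 21.9, 24.1 and 23.4 CPM at 72 h, at least 82.4-fold higher there against a floor of 3 counts over the group. Socs2, a feedback inhibitor of cytokine signaling, was at least 77.7-fold higher at 72 h on the same floor. The bound was 51.2-fold for Fut7, which builds selectin ligands, and 36-fold for Ifitm1, an interferon-induced membrane protein. Lgals3, encoding galectin-3, had 0.295, 0.572 and 0.789 CPM at 0 h and 138, 124 and 105 CPM at 72 h (log2 fold change -7.77). Slc16a3, a lactate exporter, had 0.884, 0 and 0.526 CPM at 0 h and 26.6, 63.9 and 119 CPM at 72 h (log2 fold change -7.20, or -6.58 without 72 h library 3). Scd1, a stearoyl-CoA desaturase, had means of 0.175 and 29.6 CPM, and Nusap1, a spindle protein, 1.61 and 176 CPM. The floors and intervals cover counting error only.

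Genes that respond to the T cell receptor were mostly higher in the unstimulated cells. Of 13 tested TOX, NR4A, EGR and NFAT factors, 8 were higher and 2 lower, with a median log2 fold change of 2.15. Nr4a1, an orphan receptor that reports recent receptor signals, had 77.2, 85.5 and 66.8 CPM against 10.5, 2.62 and 8.02 CPM (log2 fold change 3.33, SE 0.45, edgeR adjusted p = 2.6e-05). Egr2, a receptor-induced zinc finger factor, had 30.6, 29.5 and 31.3 CPM against 3.42, 0.581 and 1.65 CPM (log2 fold change 3.89, edgeR adjusted p = 4.61e-07). In both genes all 0 h 41BB+ libraries lay above all 72 h 41BB- libraries. Egr1 (48.2 and 3.09 CPM), Egr3 (27.1 and 5.78 CPM), Nr4a2 (22.4 and 4.33 CPM) and Nr4a3 (99.4 and 17.6 CPM) were also higher. Tox, a factor tied to lasting receptor stimulation and to T cell development, had 269, 268 and 246 CPM against 58, 23 and 58.3 CPM (log2 fold change 2.40, edgeR adjusted p = 3.93e-06). The levels of Tox, Egr1, Egr3, Nr4a1 and Nr4a2 in 41BB- cells at 0 h did not differ from those of 41BB+ cells at 0 h at the threshold, with 204, 61.4, 25.5, 45.9 and 20.1 CPM. Of the 13 factors, 3 were higher and 2 lower in 0 h 41BB+ than in 0 h 41BB- cells. Nfatc2, a calcium-regulated factor, was lower at 72.9 ± 3.31 against 182 ± 25 CPM (mean ± SD, n = 3; log2 fold change -1.41), and Nfatc3 (218 and 247 CPM) lost its call (edgeR adjusted p = 0.0491) under 11 of the other settings. Nfatc1 was not called, with 288 and 240 CPM.

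Among 30 AP-1 and early response genes, 17 were higher and 3 lower, with a median log2 fold change of 1.00. Fos, an AP-1 subunit, had 15, 22 and 6.84 CPM in the 41BB+ libraries and 0 counts in the 3 libraries of 72 h. It was at least 56.0-fold higher against 3 counts over the group (edgeR adjusted p = 0.0115), a call that limma voom with quality weights did not make (adjusted p = 0.216). Jun, its partner, had 63.0, 82.7 and 30.5 CPM against 8.17, 8.72 and 6.60 CPM (log2 fold change 2.82). Both were higher still in 41BB- cells at 0 h, with 156 and 370 CPM. Those cells had also been sorted from tissue, and an effect of the sort on these genes was not tested. Against those cells, 18 of the 30 genes were lower in 0 h 41BB+ cells and 5 higher, with a median log2 fold change of -0.959. Spry1, a feedback inhibitor of receptor signaling (34.5 and 3.70 CPM), Dusp2, a MAP kinase phosphatase (107 and 41.5 CPM), and Cd69, an early surface marker (88.4 and 22.1 CPM), were higher. Jund (197 and 352 CPM) and Batf (22.8 and 44.9 CPM), AP-1 family members, were lower, and Junb (50.0 and 67.3 CPM) was not called. Spry1 was near 0 in 41BB- cells at 0 h (1.05 CPM), whereas Cd69 and Dusp2 were at 192 and 146 CPM there.

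Of 15 tested effector cytokines and chemokines, 7 were higher and 1 lower in the unstimulated cells, with a median log2 fold change of 1.58. Ccl4, an inflammatory chemokine, had 16.5, 20.6 and 22.1 CPM against 2.63, 1.74 and 1.65 CPM (log2 fold change 3.20, edgeR adjusted p = 9.67e-09). Ccl3, its close relative, had 8.25, 7.72 and 9.47 CPM against 1.58, 0 and 0.943 CPM. Tnf had 38.0, 36 and 28.9 CPM against 14.5, 10.2 and 7.78 CPM (log2 fold change 1.58), and Tnfsf14, encoding the TNF family ligand LIGHT, 21.2 against 4.04 CPM. In 41BB- cells at 24 h the means of Ccl4, Ccl3, Tnf and Tnfsf14 were 166, 113, 114 and 26.1 CPM. Ltb, lymphotoxin beta, was lower (78.5 and 124 CPM, log2 fold change -0.74). Ifng (2.83 and 0.712 CPM, edgeR adjusted p = 0.0988) and Il2 (0.464 and 0.351 CPM) were not called. Ifng passed as higher with DESeq2 (adjusted p = 0.0425), and in edgeR with no filter (0.0286) or without 72 h library 1 (0.0132).

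Cytotoxic genes did not move as a block. Of 18 tested granule genes, 5 were higher and 3 lower, beside 19.4% and 21.7% of autosomal genes, with a median log2 fold change of 0.35. Prf1, the pore-forming perforin, had 40.4, 35.2 and 45.0 CPM in 0 h 41BB+ libraries and 2.90, 0.581 and 2.59 CPM at 72 h (log2 fold change 4.17, SE 0.40, edgeR adjusted p = 2.22e-09). Gzmb, the granule protease granzyme B, went the other way with 67.2, 75.5 and 62.6 CPM against 729, 595 and 491 CPM (log2 fold change -3.23, SE 0.37, edgeR adjusted p = 9.89e-06). The libraries of the 2 groups were apart for both genes, in opposite directions. In 41BB- cells at 0 h Gzmb was at 0.83 CPM and Prf1 at 62.3 CPM. Gzmc was lower as well (0.381 and 8.87 CPM), and Srgn, the granule proteoglycan (166 and 80.3 CPM), and Cst7, a cathepsin inhibitor (55.9 and 14.7 CPM), were higher. Gzma (3.49 and 2.58 CPM) was not called.

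Effector transcription factors were mostly lower in the unstimulated cells, 10 of 17 against 2 higher, with a median log2 fold change of -1.02. Runx3, which maintains the cytotoxic lineage, had 138, 127 and 133 CPM against 790, 686 and 599 CPM (log2 fold change -2.47, SE 0.13, edgeR adjusted p = 2.58e-15). Prdm1, encoding the terminal effector factor BLIMP-1, had 1.77, 0.858 and 1.84 CPM against 17.1, 15.4 and 38.0 CPM (log2 fold change -4.03, edgeR adjusted p = 7.5e-07). Tbx21 had 10.3, 12.3 and 15 CPM against 51.4, 51.2 and 39.9 CPM (log2 fold change -1.99), so the T-box pair differed in opposite directions. Bhlhe40 (4.73 and 45.9 CPM) and Ikzf2 (107 and 204 CPM) were lower too. The genes that were higher were Myb, a factor of stem-like T cells, with 376 ± 16.2 against 108 ± 7.68 CPM, and Zeb2, a repressor found in effector cells, with 24.0 ± 3.17 against 4.71 ± 1.25 CPM (mean ± SD, n = 3). Stat4, Hif1a and Id2 were not called.

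**Figure D2:**
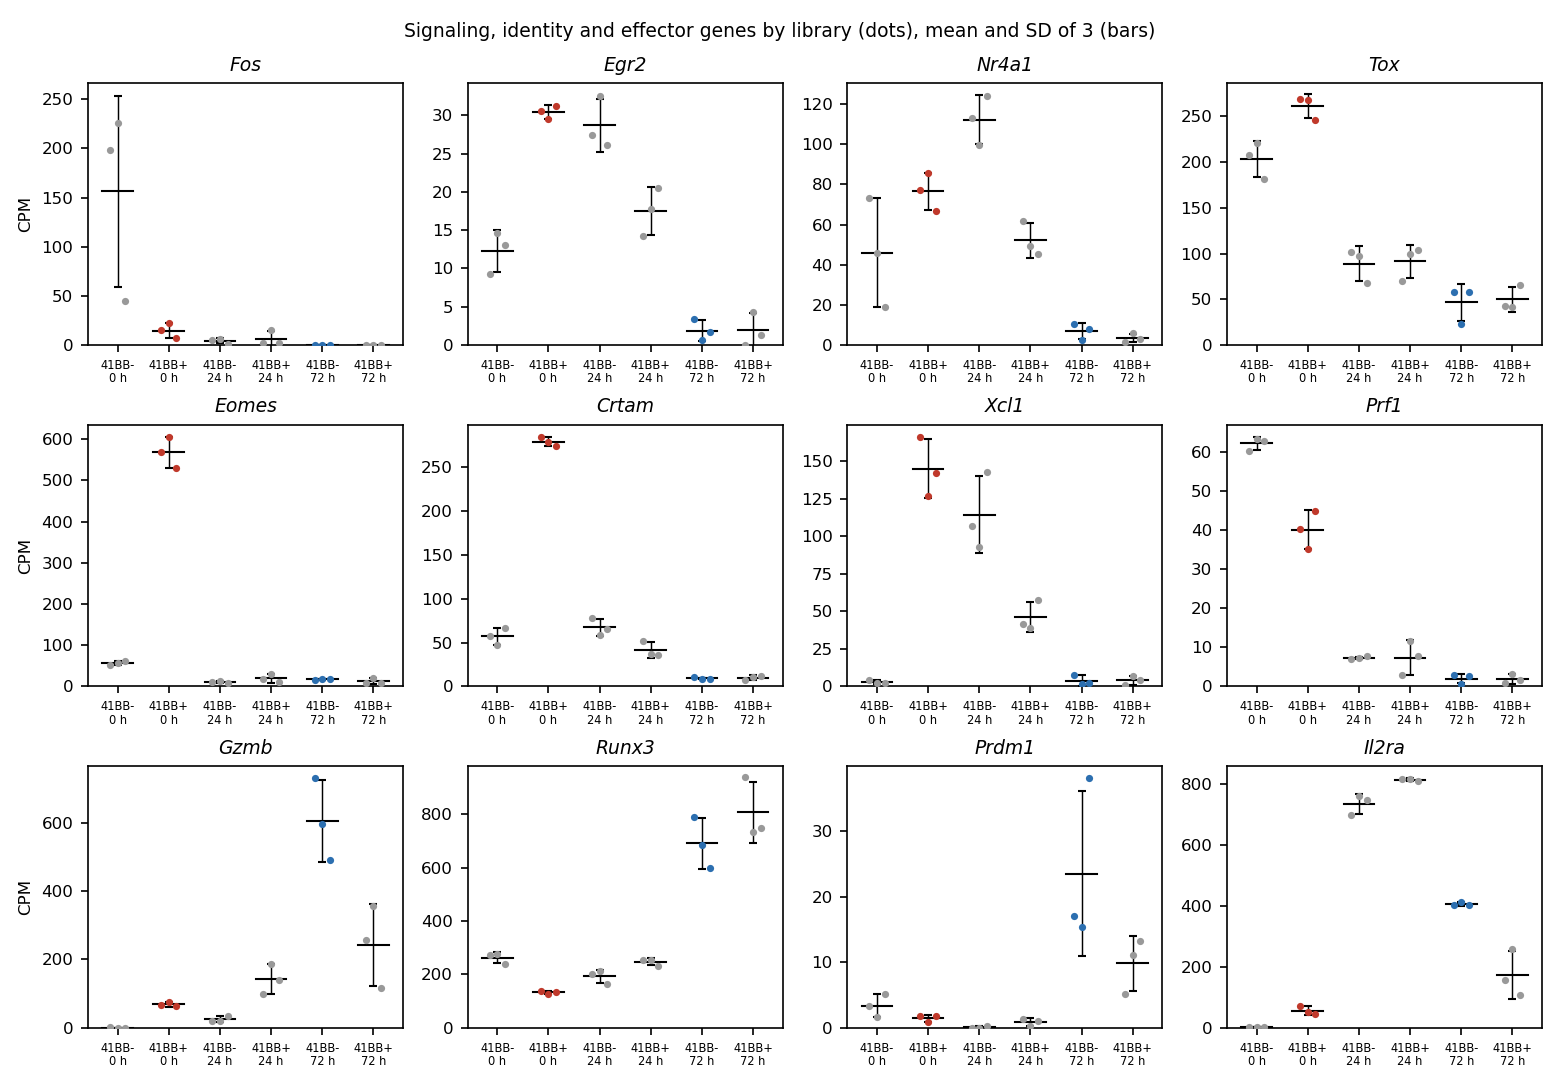
CPM of 12 genes in every library (dots) of the 6 groups, with the mean of 3 libraries and its SD as bars, 0 h 41BB+ cells in red, 72 h 41BB- cells in blue and the other groups in grey. Eomes and Crtam were highest in 0 h 41BB+ cells among the 6 groups, Gzmb was highest in 72 h 41BB- cells, and Fos was highest in 0 h 41BB- cells.

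Cytokine receptor chains were more often lower than higher, 11 against 6 of 20, with a median log2 fold change of -0.75. Il2ra, the high-affinity IL-2 receptor chain, had 72.8, 51.8 and 44.7 CPM at 0 h and 404, 414 and 403 CPM at 72 h (log2 fold change -2.94, edgeR adjusted p = 1.41e-08). Il12rb2 had 2.36, 2.00 and 2.10 CPM against 55.3, 59.9 and 96.7 CPM (log2 fold change -5.10), and Il18r1 16.2, 19.7 and 18.1 CPM against 169, 180 and 220 CPM (log2 fold change -3.47). These receptors for IL-12 and IL-18 had no overlap between the groups, and the IL-18 receptor partner chain gene Il18rap (21.1 and 85.3 CPM) and Il2rb (200 and 690 CPM) were lower as well. Il7r, the IL-7 receptor of naive and memory cells, was at 47.3 CPM against 151 CPM, and 41BB- cells at 0 h had 411 CPM. Il6st, the shared signaling chain of the IL-6 family, was higher with 298, 305 and 295 CPM against 95.9, 105 and 91.7 CPM (log2 fold change 1.53). Il4ra (240 and 107 CPM), Il27ra (124 and 58.2 CPM) and Il21r (210 and 126 CPM) were also higher. Il2rg, the shared chain of the IL-2 receptor family, is listed at 0 counts in all 18 libraries, as are Rpl13 and Cox4i1, which every cell uses, so these zeros are not read as absence of expression. In the feedback list, 6 of 22 genes were higher and 8 lower, with Pim1, a cytokine-induced kinase (57.3 and 133 CPM), and Socs1, an inhibitor of JAK kinases (9.09 and 18.8 CPM), among the lower.

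Of 18 coinhibitory receptors and ligands, 5 were higher and 3 lower, beside 19.4% and 21.7% of autosomal genes. Ctla4, the inhibitory counterpart of CD28, had 14.1, 14.9 and 6.05 CPM in unstimulated 41BB+ cells and 246, 308 and 310 CPM at 72 h (log2 fold change -4.72, edgeR adjusted p = 2.48e-08). Lag3, a receptor for MHC class II, was at 15.7 and 33.2 CPM (log2 fold change -1.17). Cd160 had 68.6, 59.5 and 52.3 CPM against 10.5, 9.30 and 13.4 CPM (log2 fold change 2.34), with no overlap. Cd200 (57.0 and 9.49 CPM), Cd274, encoding PD-L1 (50.4 and 11.2 CPM), and Pdcd1lg2, encoding PD-L2 (13.3 and 1.19 CPM), were higher. Pdcd1, encoding PD-1, had 12.7, 17.7 and 15.3 CPM against 18.2, 21.5 and 17.7 CPM and was not called (95% interval of the log2 fold change -0.90 to 0.09). Tigit (10.2 and 11.2 CPM) and Entpd1 (10.8 and 12.6 CPM) were not called either.

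In the rest of the TNF receptor and ligand superfamily, 9 of 24 genes were higher and 6 lower. The count higher was 5 without 72 h library 2, and the count lower was 3 without 0 h library 1. Tnfsf8, the CD30 ligand, had 85.1, 67.2 and 78.1 CPM against 25, 33.4 and 28.8 CPM (log2 fold change 1.32), Tnfrsf21 had 13.3 against 2.61 CPM, and Cd27, a costimulatory receptor, had 167 against 112 CPM. Tnfrsf26 (29.4 and 49.9 CPM) was lower, and Tnfrsf4, encoding OX40, was not called (6.38 and 5.90 CPM). Costimulatory receptors were 7 higher and 4 lower of 16. The SLAM family members Cd84 (124 and 40.3 CPM), Slamf1 (39.5 and 15.1 CPM) and Ly9 (153 and 70.8 CPM) were higher, Icos (43.5 and 87.9 CPM) and Cd80 (1.5 and 49.7 CPM) were lower, and Cd28 (237 and 194 CPM) was not called. Of 5 tested NK-type receptors, Klrc1 (15.4 and 2.84 CPM) and Cd160 were higher.

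Genes of naive and central memory cells were 6 higher and 5 lower of 20, beside 19.4% and 21.7% of autosomal genes. Their median log2 fold change was -0.13. Bach2, a repressor that restrains effector differentiation, had 472, 473 and 481 CPM against 174, 165 and 225 CPM (log2 fold change 1.25, edgeR adjusted p = 4.41e-07). The groups did not overlap, and 41BB- cells at 0 h had 582 CPM. Tcf7, encoding TCF-1, was at 1081 ± 57.9 and 1232 ± 189 CPM (mean ± SD, n = 3) and was not called (edgeR adjusted p = 0.0589), although it passed without 72 h library 3 and with limma voom. Lef1 (378 and 322 CPM), Satb1 (399 and 411 CPM) and Ccr7 (136 and 156 CPM) were not called, while Klf2, a quiescence and egress factor, was lower (60.9 and 142 CPM, log2 fold change -1.30). Among 18 autosomal quiescence factors, 3 were higher and 8 lower. Btg1, an antiproliferative factor, was higher (249 and 110 CPM), and Cdkn1b, the CDK inhibitor p27, was lower (45.1 and 113 CPM). Homing and egress genes were 8 higher and 6 lower of 22. Gpr183, an oxysterol receptor (71.2 and 21.9 CPM), was higher, and Itgb1 (104 and 310 CPM) and Itgb7 (98.5 and 268 CPM), integrin beta chains, were lower.

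Genes of cell division gave the widest gap. All 32 tested G2 and M phase genes were lower in the unstimulated cells, beside 21.7% of autosomal genes, with a median log2 fold change of -5.15. Mki67, which encodes the proliferation antigen Ki-67, had 25.6, 14.3 and 35.2 CPM against 2453, 2070 and 2256 CPM (log2 fold change -6.57, SE 0.31, edgeR adjusted p = 1.78e-10). Bub1b, a spindle checkpoint kinase, had 19.7, 12.6 and 14.5 CPM against 273, 273 and 277 CPM (log2 fold change -4.22). Kif11, a spindle motor, had 8.25, 3.43 and 8.94 CPM against 375, 403 and 346 CPM (log2 fold change -5.84), and Ube2c, a mitotic ubiquitin carrier, 1.77, 0.858 and 1.05 CPM against 109, 111 and 86.1 CPM (log2 fold change -6.43). No 0 h 41BB+ library approached a 72 h 41BB- library in these genes. In 41BB- cells at 0 h the same genes were lower still for Mki67 (9.25 CPM), Bub1b (4.37 CPM) and Kif11 (2.06 CPM). All 38 tested replication-dependent histone genes were lower too, with a median of -5.26, and Hist1h1b, a linker histone, had 15, 5.44 and 21.6 CPM against 1074, 1524 and 740 CPM. Histone genes are near-identical copies of each other, so counts of single histone genes are uncertain.

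S phase genes took a middle place. Of 33 tested, 30 were lower and 2 higher, with a median log2 fold change of -1.42, and only 21 of the 30 differed by at least 2-fold. Mcm2, a subunit of the replicative helicase, had 253, 227 and 209 CPM against 223, 229 and 233 CPM and was not called (log2 fold change -0.08, 95% interval -0.30 to 0.14). The 2 groups overlapped there, and 41BB- cells at 0 h had 45.4 CPM. The helicase subunits Mcm3, Mcm4, Mcm5, Mcm6 and Mcm7 were lower by log2 fold changes of -0.97, -0.80, -0.96, -0.47 and -0.94. Rrm2, the regulated subunit of ribonucleotide reductase, had 7.95, 8.58 and 9.21 CPM against 243, 259 and 200 CPM (log2 fold change -4.84, SE 0.17, edgeR adjusted p = 3.1e-18), and Rrm1 had 65.5 against 303 CPM. Cdc6, which loads the helicase, had 12.4, 8.01 and 13.2 CPM against 98.8, 102 and 94.8 CPM (log2 fold change -3.22), and Uhrf1, which copies DNA methylation, 72.9 against 386 CPM. The 2 genes that were higher were Cdca7, with 137, 127 and 109 CPM against 59.5, 50.6 and 67.5 CPM, and Ung, which removes uracil from DNA, with 36.4 against 19.7 CPM. Against 41BB- cells at 0 h, 31 of the 33 genes were higher in 41BB+ cells at 0 h.

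G1 regulators showed the same order. Ccnd2, cyclin D2, had 633, 601 and 594 CPM against 223, 202 and 240 CPM (log2 fold change 1.37, edgeR adjusted p = 3e-10), and its partner kinase Cdk4 had 166 against 109 CPM. These were the only 2 of 21 tested that were higher, and 17 were lower. Ccne2, a cyclin of S phase entry, had 2.36, 3.15 and 0.526 CPM against 44.0, 54.4 and 38.4 CPM (log2 fold change -4.59). The E2F genes E2f1 (11.5 and 29.0 CPM), E2f2 (8.16 and 271 CPM), E2f7 (1.02 and 53.9 CPM) and E2f8 (1.18 and 122 CPM) were all lower.

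The promoters of these genes were read because replication and mitotic genes moved by different amounts. RefSeq windows (GRCm38.p6) gave the 250 bases before the start of 27 of the 32 G2 and M phase genes and 26 of the 33 S phase genes. CCAAT, the letters bound by NF-Y, was found on either strand in 75.0% of 28 G2 and M phase windows and 69.0% of 29 S phase windows, against 33.8% of all 32851 windows and 35.4% of windows of autosomal genes tested. TTTCCCGC or TTTGGCGC, the letters of E2F sites, were found on either strand in 20.7% of S phase windows, in 0 of the G2 and M phase windows, in 10.7% of ribosome biogenesis windows, in 2.48% of windows of autosomal genes tested and in 1.30% of all windows. CACGTG, the E-box read by MYC, was found in 10.1% of 2303 windows of genes called higher, 6.47% of 2564 windows of genes called lower and 8.27% of 11433 windows of autosomal genes tested. It was in 1 of 28 windows (3.57%) of 25 ribosome biogenesis genes, which were mostly higher. Glycolysis genes, mostly lower, held CACGTG in 4 of 33 windows (12.1%) of 20 genes. AP-1 and early response genes, more often higher than lower, held it in 23.3% of 30 windows. The share was 10.3% of S phase and 7.14% of G2 and M phase windows. CCAAT stood in 32.9% and 38.2% of windows of genes called higher and lower, and the E2F letters in 2.26% and 3.28%. These are matches of letters only, and no binding was measured. The G2 and M phase promoters of Bub1b (chr2:118597961-118598210), Kif11 (chr19:37376132-37376381) and Ube2c (chr2:164769679-164769928) are shown with CCAAT or its reverse complement ATTGG in capitals, all on the plus strand, 5′ to 3′ and ending at the base before the gene start. Bub1b has a match 113 bases and Kif11 a match 45 bases before the start, and Ube2c has 6 matches. The promoters shown here and below were chosen by small edgeR adjusted p from list members with a match. A match in each was therefore fixed in advance.
Bub1b: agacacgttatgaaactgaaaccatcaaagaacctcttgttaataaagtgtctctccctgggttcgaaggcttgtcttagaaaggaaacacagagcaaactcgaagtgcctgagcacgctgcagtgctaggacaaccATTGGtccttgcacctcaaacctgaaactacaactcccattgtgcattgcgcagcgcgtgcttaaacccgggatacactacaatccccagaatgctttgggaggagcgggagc
Kif11: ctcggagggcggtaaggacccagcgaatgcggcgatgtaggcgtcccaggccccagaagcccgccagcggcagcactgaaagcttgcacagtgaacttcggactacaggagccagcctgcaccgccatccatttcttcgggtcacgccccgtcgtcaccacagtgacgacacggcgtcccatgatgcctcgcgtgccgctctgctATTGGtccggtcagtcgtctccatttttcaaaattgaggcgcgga
Ube2c: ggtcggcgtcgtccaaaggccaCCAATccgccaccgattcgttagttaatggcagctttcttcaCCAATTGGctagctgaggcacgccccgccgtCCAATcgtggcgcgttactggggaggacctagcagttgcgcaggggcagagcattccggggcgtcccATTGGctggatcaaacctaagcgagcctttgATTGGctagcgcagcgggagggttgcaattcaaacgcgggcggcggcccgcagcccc
The S phase promoters of Cdc6 (chr11:98907901-98908150) and Mcm5 (chr8:75109259-75109508), also on the plus strand, are shown with the reverse complements of the E2F letters in capitals, 138 and 149 bases before the start.
Cdc6: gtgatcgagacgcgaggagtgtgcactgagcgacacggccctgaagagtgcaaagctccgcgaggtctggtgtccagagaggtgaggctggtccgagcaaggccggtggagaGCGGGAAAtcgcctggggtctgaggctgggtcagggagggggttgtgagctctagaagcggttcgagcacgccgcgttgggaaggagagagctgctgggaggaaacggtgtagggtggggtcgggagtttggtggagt
Mcm5: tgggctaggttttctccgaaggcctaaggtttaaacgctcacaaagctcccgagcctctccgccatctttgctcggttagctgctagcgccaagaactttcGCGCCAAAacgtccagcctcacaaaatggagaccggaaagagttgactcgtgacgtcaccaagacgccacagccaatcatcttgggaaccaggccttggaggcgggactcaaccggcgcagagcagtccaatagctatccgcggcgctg
The 2 E2F-lettered genes differed in size of change, -3.22 for Cdc6 and -0.96 for Mcm5 on the log2 scale.

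Ribosome production was the clearest group in the other direction. Of 30 tested ribosome biogenesis genes, 28 were higher in unstimulated 41BB+ cells and 0 lower, beside 19.4% of autosomal genes, with a median log2 fold change of 1.57. Ncl, nucleolin, had 4389, 4339 and 4130 CPM against 1769, 1586 and 1900 CPM (log2 fold change 1.21, SE 0.08, edgeR adjusted p = 1.57e-12). Polr1b, a subunit of RNA polymerase I, had 128, 110 and 124 CPM against 32.7, 26.4 and 22.9 CPM (log2 fold change 2.06), and Heatr1, which drives its transcription, 422, 381 and 380 CPM against 112, 84.3 and 98.4 CPM. Libraries of the groups were apart in all of these, and Ddx21 (946 and 268 CPM), Utp20 (351 and 88.9 CPM), Nop56 (367 and 117 CPM) and Npm1 (1843 and 1027 CPM) followed. Polr1c (39.8 and 30.7 CPM) and Wdr12 (96.1 and 102 CPM) were not called. Myc, which drives this program in activated lymphocytes, had 308, 304 and 266 CPM against 67.7, 53.8 and 51.2 CPM (log2 fold change 2.26, SE 0.13, edgeR adjusted p = 1.74e-14). Its level was 100 CPM in 41BB- cells at 0 h and 370 CPM at 24 h. In the list of MYC partners and antagonists, 2 of 11 were higher and 4 lower, Myc itself included, and the antagonist gene Mxd3 was lower (0.263 and 34.3 CPM).

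In a list of 36 cytosolic ribosomal protein genes, 27 of 34 tested were higher by small amounts and 1 was lower, with a median log2 fold change of 0.50 (0.495). None of the 27 reached 2-fold, though Rps25, outside the list and named after its value was seen, did (206 and 92.7 CPM, log2 fold change 1.07). Rplp2 had 1675, 1651 and 1684 CPM against 770, 1008 and 717 CPM, and Rpl13a (33.1 and 69.8 CPM) was the lower one. Ribosomal protein genes have many processed copies in the genome, so their counts are uncertain. Of 24 heat shock and chaperonin genes, 19 were higher and 0 lower, with a median of 0.74. Hspa5, the chaperone BiP of the endoplasmic reticulum, had 744, 741 and 660 CPM against 282, 280 and 270 CPM (log2 fold change 1.28), the mitochondrial chaperonin gene Hspd1 had 570 against 260 CPM, and Hspa8 3100 against 2009 CPM. Proteasome genes were 11 higher and 0 lower of 25 with a median of 0.25, and leaving out 0 h library 2, 72 h library 1 or 72 h library 3 left 7, 6 or 5. In the list of tRNA synthetases and ATF4 targets, 7 of 21 were higher and 5 lower, with a median of 0.18. The synthetase genes Eprs (460 and 284 CPM), Iars (208 and 118 CPM) and Tars (153 and 85.6 CPM) were among the higher, and Sars (182 and 172 CPM), Aars (120 and 114 CPM) and Cars (77.4 and 61.5 CPM) were not called. The ATF4 targets Trib3 (1.14 and 18.1 CPM), Sesn2 (3.62 and 14.2 CPM) and Asns (2.49 and 22 CPM) were among the lower, and Atf4 itself (158 and 116 CPM) was not called. Asns reached 45.0 CPM in 72 h library 3 and 9.75 and 11.3 CPM in the others, and its log2 fold change of -3.21 was -2.15 without that library.

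**Figure D3:**
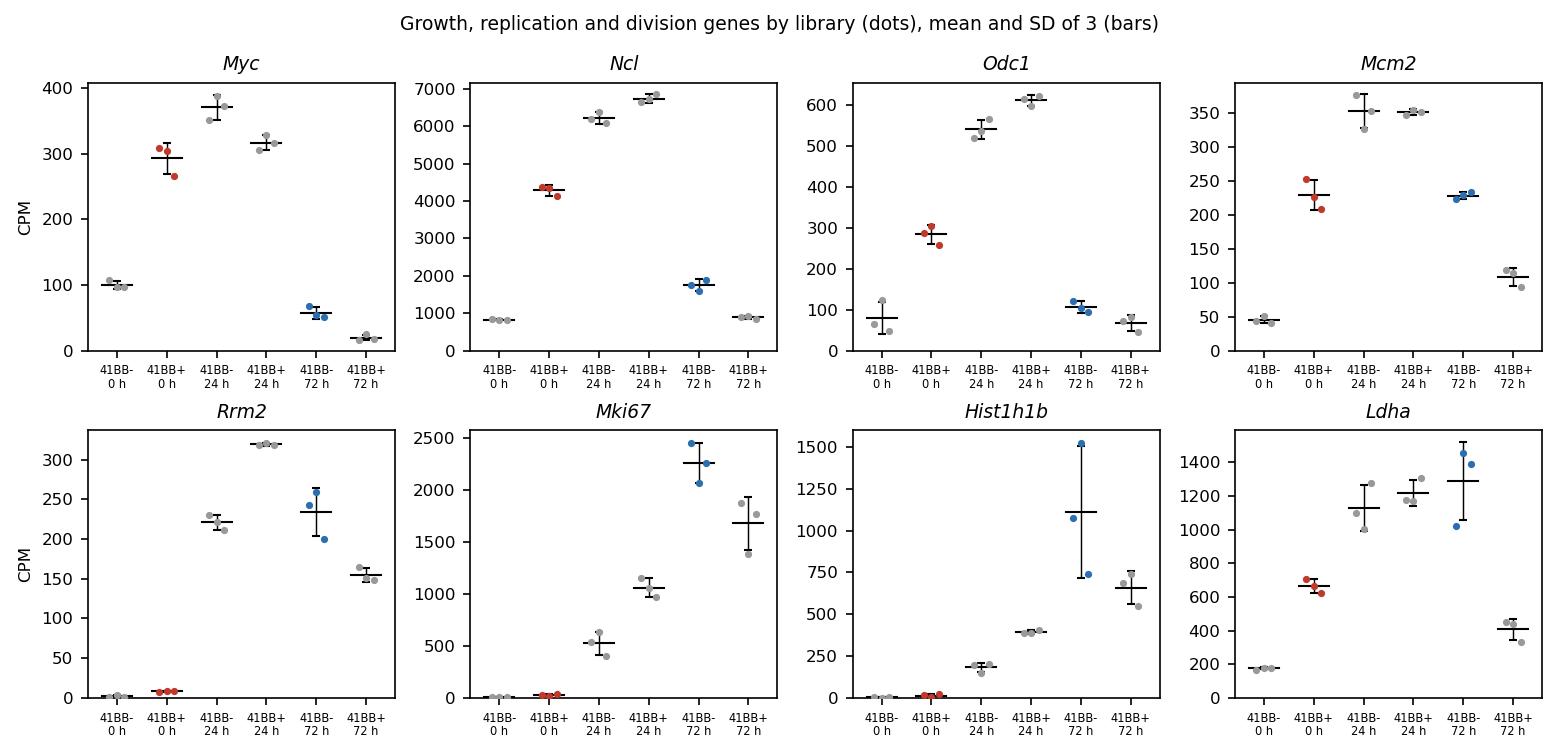
CPM of 8 growth, replication and division genes in every library (dots) of the 6 groups, with the mean of 3 libraries and its SD as bars, 0 h 41BB+ cells in red and 72 h 41BB- cells in blue. Myc, Ncl and Odc1 were higher in 0 h 41BB+ than in 72 h 41BB- cells, Mcm2 was level, and Rrm2, Mki67, Hist1h1b and Ldha were lower.

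Polyamine synthesis, which supplies growing cells with spermidine, was mostly higher at its enzymes. Odc1, the rate-limiting ornithine decarboxylase, had 288, 304 and 259 CPM against 122, 104 and 94.8 CPM (log2 fold change 1.32, SE 0.24, edgeR adjusted p = 0.000412). Srm, spermidine synthase, had 135, 176 and 119 CPM against 42.4, 38.1 and 25.9 CPM (log2 fold change 1.93). The groups did not overlap for either enzyme, and Amd1 (59.9 and 34.1 CPM), Mat2a (228 and 96.3 CPM) and Mtap (130 and 44.2 CPM) were higher too. Amd1 has a near copy, Amd2, so its count is uncertain. Ahcy (46.3 and 74.2 CPM) and the lysosomal polyamine exporter Atp13a2 (17.4 and 46.6 CPM) were lower, and the regulators Oaz1 (161 and 155 CPM) and Azin1 (95.9 and 91.3 CPM) were not called. In the whole list, 8 of 18 were higher and 3 lower. Eif5a, the protein that carries the spermidine-derived hypusine, had 1055, 1100 and 1057 CPM against 583, 671 and 533 CPM (log2 fold change 0.76), and Dhps, the first hypusine enzyme, had 29.9 against 15 CPM.

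Serine, folate and nucleotide synthesis was 15 higher and 9 lower of 27. The enzymes that build purines and carry folate units were higher, with Gart at 341, 348 and 301 CPM against 133, 131 and 138 CPM (log2 fold change 1.21), Mthfd1 at 283 against 119 CPM and Shmt1 at 128 against 42.3 CPM. The enzymes of deoxynucleotide supply were lower, with Tyms at 8.54, 6.87 and 8.94 CPM against 90.1, 80.5 and 81.1 CPM (log2 fold change -3.45), and Rrm1 and Rrm2 as above. The mitochondrial folate enzyme gene Mthfd2 (62.5 and 87.7 CPM) was lower and Phgdh, which opens serine synthesis (103 and 108 CPM), was not called. Of 14 amino acid transporters, 5 were higher and 3 lower, and Slc7a5, the large neutral amino acid transporter, had 181 against 122 CPM (log2 fold change 0.49).

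Glycolysis genes were lower in the unstimulated cells, 18 of 21 against 2 higher, with a median log2 fold change of -1.09. Tpi1, triose phosphate isomerase, had 92.8, 73.8 and 66.0 CPM against 211, 298 and 382 CPM (log2 fold change -2.03, edgeR adjusted p = 1.52e-09), and Eno1, enolase, 187, 182 and 190 CPM against 585, 706 and 798 CPM. Ldha, lactate dehydrogenase A, had 708, 665 and 622 CPM against 1024, 1456 and 1389 CPM (log2 fold change -1.04). No 0 h 41BB+ library reached a 72 h 41BB- library in these genes. Yet the 0 h 41BB+ cells lay above 41BB- cells of 0 h, where Tpi1, Eno1 and Ldha had 12.4, 118 and 175 CPM. The 2 genes that were higher were Slc16a1, a lactate carrier, with 130 against 70.1 CPM, and Pfkfb3, a glycolytic regulator, with 138 against 73.6 CPM. The 72 h libraries spread widely for several genes of this group, with library 3 highest. Slc2a1, the glucose carrier GLUT1, had 52.9, 96.2 and 172 CPM there against 47.4, 33.5 and 38.4 CPM (log2 fold change -1.52). Hk2, hexokinase 2, had 61.1, 71.5 and 136 CPM against 55.7, 60.6 and 58.7 CPM, and its call (edgeR adjusted p = 0.0207) was lost without 72 h library 3 (0.255), 0 h library 1 (0.0748) or 0 h library 3 (0.0514), and with only the 6 libraries fitted (0.0706). Of 18 tested hypoxia-induced genes, 14 were lower and 1 higher. Bnip3, a mitophagy receptor, had 27.9, 63.9 and 136 CPM at 72 h against 6.19, 4.29 and 4.47 CPM (log2 fold change -4.02, or -3.30 without 72 h library 3), and Vegfa 5.00, 10.5 and 24.5 CPM against 0.884, 1.72 and 1.58 CPM. Without 72 h library 3, 15 glycolysis and 13 hypoxia-induced genes were lower. Oxygen in the cultures was not measured. Car12, a carbonic anhydrase, was the gene that was higher (53.4 and 8.93 CPM).

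Nuclear genes of oxidative phosphorylation were mostly not called, 25 of 32, with 5 higher, 2 lower and a median log2 fold change of 0.02. Cycs, cytochrome c, was higher (67.2 and 29.3 CPM). Against 41BB- cells at 0 h, 27 of the same 32 genes were higher in 41BB+ cells at 0 h. The tricarboxylic acid cycle was 2 higher and 4 lower of 21. Lipid synthesis was 16 lower and 2 higher of 27, with a median of -0.61. Scd2, a desaturase, had 33.3, 44.3 and 45.5 CPM against 379, 544 and 670 CPM (log2 fold change -3.77, edgeR adjusted p = 1.01e-11). Acaca, the first enzyme of fatty acid synthesis, was higher (152 and 92.8 CPM), and the call of Fasn (359 and 262 CPM, edgeR adjusted p = 0.0372) was lost without 0 h library 1 (0.0526), 0 h library 2 (0.157), 72 h library 2 (0.156) or 72 h library 3 (0.0985). Fatty acid oxidation was 8 lower and 1 higher of 18, with Cpt1a, the mitochondrial entry step, at 24.2, 15.7 and 24.5 CPM against 86.9, 91.6 and 94.8 CPM (log2 fold change -2.17).

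Of 18 tested S100, annexin and galectin genes and related genes of effector T cells, 17 were lower and 1 higher, with a median log2 fold change of -2.21. Vim, the intermediate filament vimentin, had 49.2, 65.8 and 85.5 CPM against 1444, 1331 and 1850 CPM (log2 fold change -4.60, SE 0.24, edgeR adjusted p = 5.67e-11). Lgals1, galectin-1, had 23, 27.2 and 32.6 CPM against 373, 413 and 344 CPM (log2 fold change -3.85), and Anxa2, annexin A2, 5.60, 14.3 and 14.5 CPM against 217, 237 and 252 CPM (log2 fold change -4.43). Separation was complete in each, and S100a6 (1.62 and 55.6 CPM) and S100a10 (81.8 and 373 CPM) were lower as well. The level of Vim in unstimulated 41BB+ cells was also under that of 41BB- cells at 0 h (270 CPM). Cytoskeletal genes were 11 lower and 0 higher of 17, with Stmn1, a tubulin-binding protein of dividing cells, at 47.4 against 301 CPM and Lmnb1, a nuclear lamin, at 123 against 656 CPM.

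Interferon-induced genes were more often higher, 16 of 30 against 3 lower, with a median log2 fold change of 1.31, but most of the higher genes had low levels. Ifit1, an antiviral RNA-binding protein, had 5.30, 7.44 and 6.84 CPM against 0, 0 and 0.236 CPM, the last being 1 count (ratio of counts per library size 75.1, 95% counting interval 13.1 to 3009, edgeR adjusted p = 7.7e-07). Usp18, which removes ISG15 from proteins (9.83 and 0.272 CPM), Ifit3 (6.42 and 0.684 CPM) and Ifi27l2a (30.1 and 9.51 CPM) were higher, and Stat2 (17.4 and 37.3 CPM), Parp14 (69.7 and 111 CPM) and Phf11b (6.51 and 29.8 CPM) were lower. The summed level of the list was 596, 620 and 619 CPM at 0 h and 586, 533 and 583 CPM at 72 h, and 41BB- cells at 0 h had 1436, 1423 and 1272 CPM. The ranges at 0 h and 72 h were close, and CPM leave out the TMM factors of the fit, so they are not read as separated. With only the 6 compared libraries fitted, 11 were higher and 4 lower. In the MHC class I list, 9 of 20 genes were higher and 5 lower, led by H2-Q7 with 242, 277 and 258 CPM against 58.0, 56.4 and 62.3 CPM (log2 fold change 2.05) and H2-K1 with 958 against 437 CPM. H2 genes are close copies, so their counts are uncertain, and the immunoproteasome subunit gene Psmb9 was lower (29.9 and 55.9 CPM).

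Smaller families were also read. Among 16 tested BCL2 family genes, 3 were higher and 4 lower, near the shares of all autosomal genes. The proapoptotic BH3-only genes Bbc3, encoding PUMA (4.24 and 24.3 CPM), Pmaip1, encoding NOXA (3.94 and 24.3 CPM), and Bmf (5.46 and 12.8 CPM) were lower, Bid (42.5 and 22 CPM) was higher, and Bcl2l11, encoding BIM (89.3 and 86.7 CPM), and the survival gene Mcl1 (225 and 195 CPM) were not called. Of 8 tested RGS genes, which shorten G protein signals, 4 were higher, with Rgs16 at 39.8, 36.3 and 31.0 CPM against 2.90, 4.07 and 5.66 CPM (log2 fold change 2.97, edgeR adjusted p = 2.18e-09) and Rgs2 at 10.9 against 1.10 CPM. Rgs16 was near 0 in 41BB- cells at 0 h (0.634 CPM), and Rgs2 was at 33.8 CPM there. Of 17 tested Ifi200 and Schlafen genes, 7 were higher and 7 lower.

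**Figure D4:**
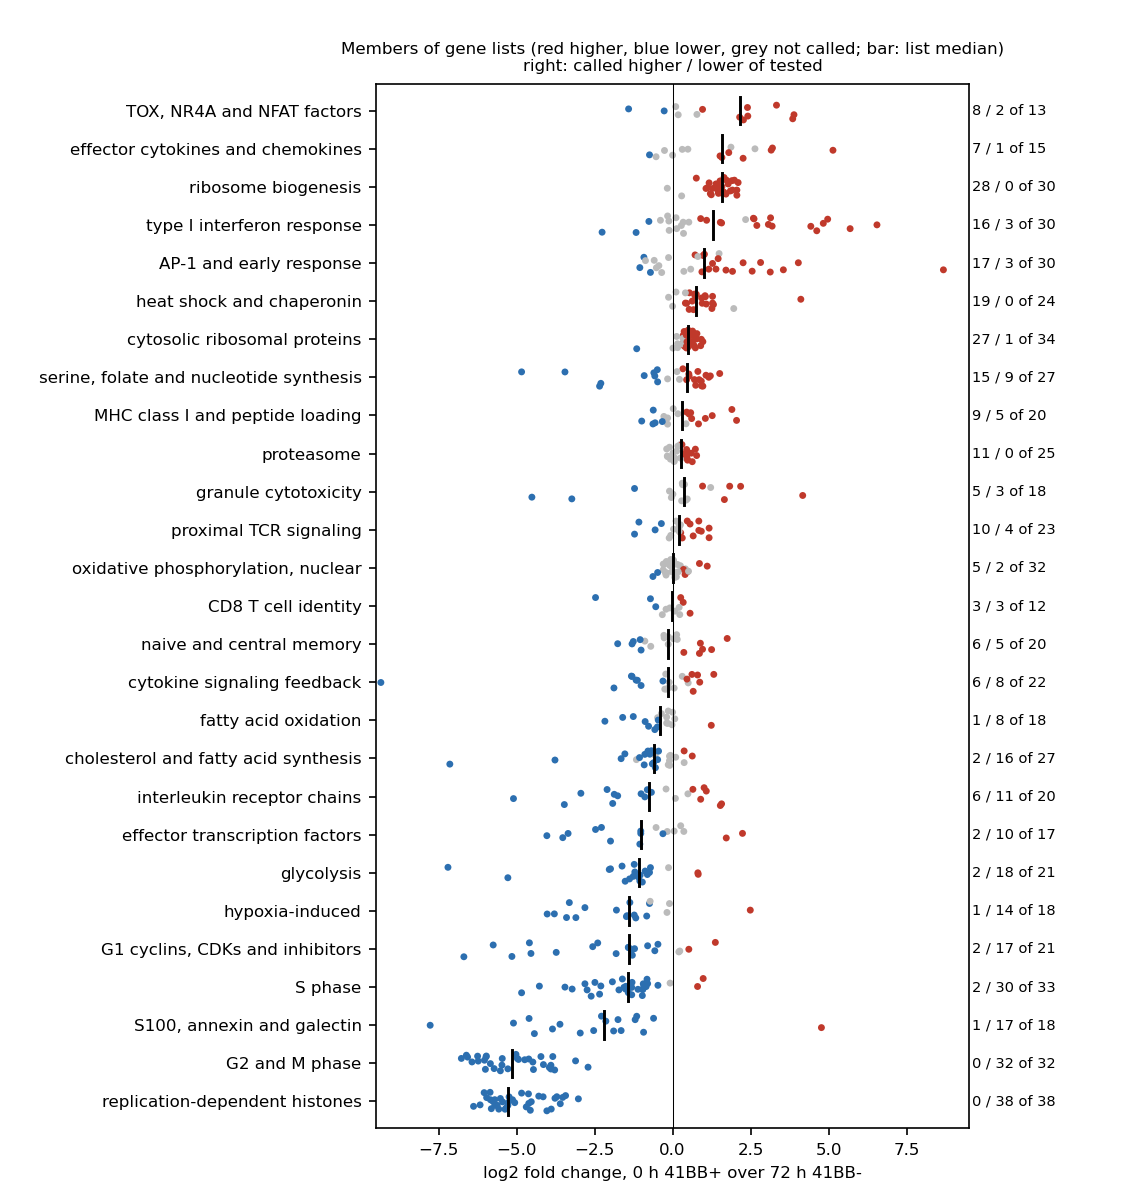
Log2 fold change of 0 h 41BB+ over 72 h 41BB- cells for every tested autosomal member of 27 gene lists, red where called higher, blue where called lower and grey where not called, with a bar at each list's median. Numbers at the right give members called higher and lower of those tested, from 38 of 38 histone genes lower to 28 of 30 ribosome biogenesis genes higher.

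Markers of other cells were read in both groups. Regulatory T cell genes summed to 315 to 360 CPM in the 0 h 41BB+ libraries and 1238 to 1274 CPM at 72 h. Of 13 tested, 8 were lower and 2 higher. Among the lower, Il2ra and Ctla4, which activated CD8+ T cells also express, made up most of that gap, while Foxp3 reached at most 7.90 CPM. The higher genes were Izumo1r, a folate receptor family member (16.8 and 5.35 CPM), and Gpr83, an orphan receptor (3.28 and 0.439 CPM). The call of Izumo1r was lost without 72 h library 1 (edgeR adjusted p = 0.0544), and that of Gpr83 without 72 h library 2 (0.107), 72 h library 3 (0.127) or 0 h library 2 (0.101). CD4 helper genes summed to 80.4 to 115 CPM and 138 to 154 CPM, with Cd4 near 0. Zbtb7b, the CD4 lineage factor, had 0.295, 0.572 and 1.05 CPM at 0 h and 35.6, 45.9 and 42.5 CPM at 72 h, and Bcl6, a follicular helper and memory factor, was higher in 41BB+ cells with 66.3, 45.2 and 57.6 CPM against 3.16, 5.23 and 5.66 CPM. NK genes summed to 539 to 615 CPM and 19 to 22.7 CPM, a gap made by Eomes, and the NK-defining Ncr1 and Tyrobp stayed at or near 0. B cell genes summed to 118 to 120 CPM and 437 to 518 CPM, which was mostly Ighm (89.7 and 463 CPM). Of 7 tested B cell genes, Ighm and Ighd (4.08 and 14.8 CPM) were lower, and H2-Aa, Cd22 and Pax5 were higher. Cd22, an inhibitory B cell receptor, had 9.13, 6.01 and 6.05 CPM against 0, 0.291 and 0.472 CPM. Pax5, the B lineage factor, had 4.42, 0.858 and 2.89 CPM against 0, 0.872 and 0 CPM, and its call (edgeR adjusted p = 0.0435) was lost without 0 h library 1 (0.15), 0 h library 3 (0.0821), 72 h library 1 (0.157) or 72 h library 3 (0.162), and with no filter (0.0614). Ms4a1 and Cd79a reached at most 1.32 CPM in the 6 libraries.

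Dendritic and myeloid markers were read in the same way. Dendritic cell genes summed to 210 to 308 CPM at 0 h and 205 to 224 CPM at 72 h, with 4 of 10 tested members higher and 1 lower. Among the higher were H2-Aa, an MHC class II chain, with 2.06, 5.72 and 9.21 CPM against 0 counts, and Itgax, encoding CD11c, with 18.3, 6.29 and 24.7 CPM against 0.527, 2.62 and 0 CPM. H2-Eb1 (9.21 and 0.0969 CPM) and Cd74 (25.1 and 5.09 CPM) were highest in 0 h library 3, at 16.3 and 42.6 CPM. Of 15 myeloid genes, 6 had 0 counts in all 0 h 41BB+ libraries and 11 in all 72 h libraries, the sums were 26.2 to 40.5 and 30.6 to 38.1 CPM, and Lyz2 had 1.37 and 0 CPM. Of 4 tested myeloid genes, 1 was higher, Csf1r, the receptor for the macrophage growth factor CSF1. It had 2.95, 3.15 and 2.1 CPM at 0 h and 0 counts at 72 h, at least 10.5-fold higher against 3 counts over the group, and its call (edgeR adjusted p = 0.026) was lost without 72 h library 1 (0.0593), 2 (0.0523) or 3 (0.0602). Gamma-delta T cell genes summed to 12.9 to 15.3 and 6.84 to 9.88 CPM, erythroid and platelet genes to 2.00 to 7.66 and 0.291 to 1.18 CPM, and stromal and endothelial genes to 107 to 141 and 106 to 123 CPM, nearly all of it Pecam1. Plasma cell genes had 0 higher and 1 lower of 4 tested. The part of other cells in the levels of these genes was not tested.

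The summed levels of whole lists place the 2 groups among the 6. Ribosome biogenesis genes summed to 13022, 12798 and 11865 CPM in 0 h 41BB+ libraries and 5013, 4698 and 4887 CPM in 72 h 41BB- libraries. The 41BB- cells had 3258, 3247 and 3214 CPM at 0 h and 16619, 16615 and 16871 CPM at 24 h, so unstimulated 41BB+ cells lay between those 2 groups and above the 72 h cells. Heat shock and chaperonin genes gave the same order, with means of 5379, 24720 and 10881 CPM in 41BB- cells at 0, 24 and 72 h and 17226 CPM in 0 h 41BB+ cells. S phase genes summed to 2396 ± 229 CPM in 0 h 41BB+ cells and 5316 ± 130 CPM in 72 h 41BB- cells, with 671 CPM in 41BB- cells at 0 h and 6349 CPM at 24 h. G2 and M phase genes summed to 273, 170 and 306 CPM in 0 h 41BB+ cells, against 162, 117 and 136 CPM in 41BB- cells at 0 h, 2684 CPM at 24 h and 7852 CPM at 72 h. Of the 32 G2 and M phase genes, 17 were higher and 2 lower in 0 h 41BB+ than in 0 h 41BB- cells, with a median log2 fold change of 1.29. Histone genes of 0 h 41BB+ cells (641 CPM) lay under those of 0 h 41BB- cells (903 CPM) and far under those of 72 h (13786 CPM). Gene by gene, the median histone log2 fold change of 0 h 41BB+ over 0 h 41BB- cells was 0.505, opposite in sign to the sum, with 7 genes higher and 1 lower. S100, annexin and galectin genes were at 738 CPM in 0 h 41BB+ cells, 1694 CPM in 0 h 41BB- cells and 4575 CPM at 72 h. The 41BB+ cells that had themselves been activated for 72 h had 2687 CPM of ribosome biogenesis genes and 5917 CPM of G2 and M phase genes.

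**Figure D5:**
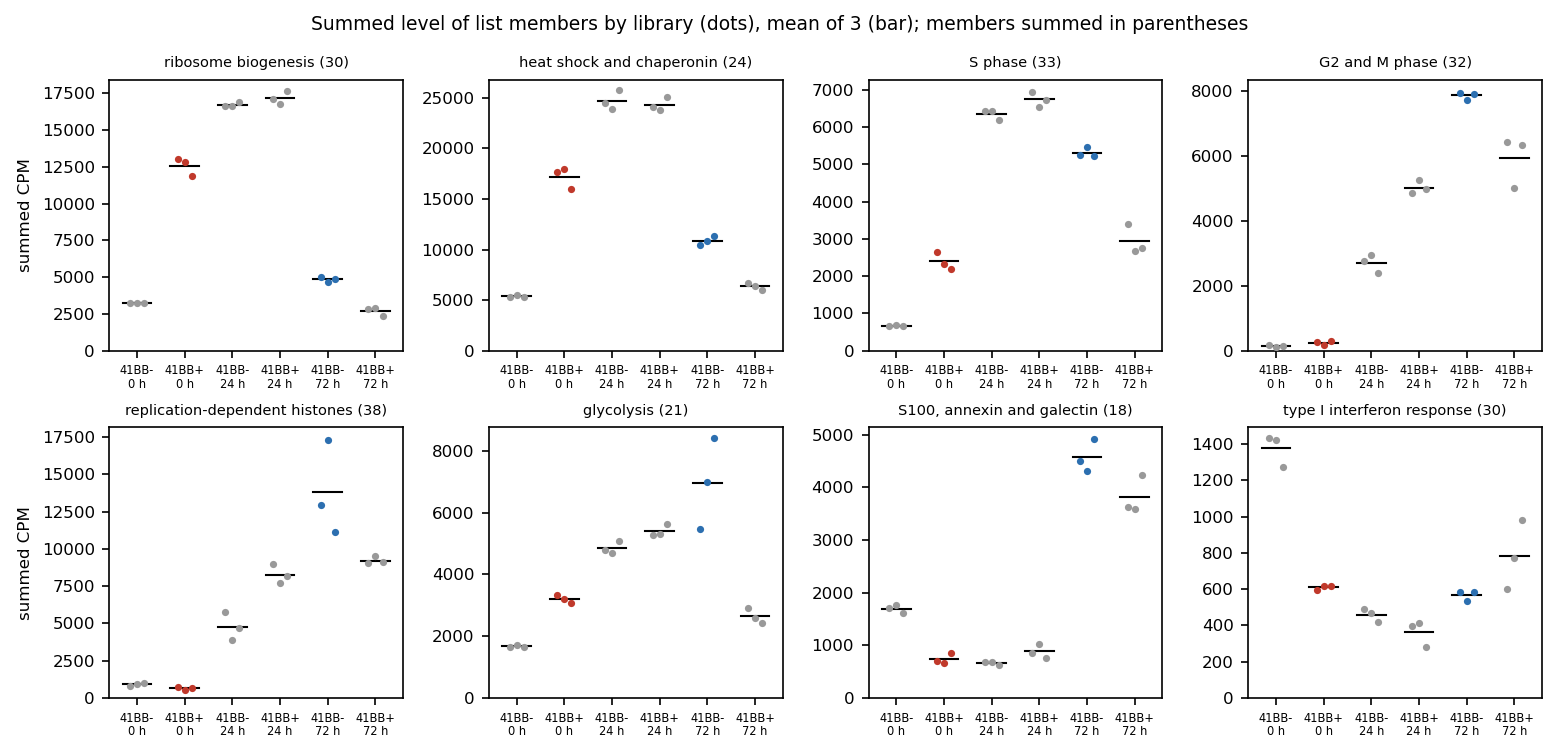
Summed CPM of the members of 8 gene lists in every library (dots) of the 6 groups, with the mean of 3 libraries as a bar, 0 h 41BB+ cells in red and 72 h 41BB- cells in blue. Ribosome biogenesis and chaperone sums of 0 h 41BB+ cells lie above those of 72 h 41BB- cells, S phase sums lie below them, and G2 and M phase and histone sums lie far below them.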

How the data were processed

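Per the labels' protocols, sequencing libraries came from a SMARTer Stranded Total RNA-Seq v2 kit. FastQC 0.11.9, Trimmomatic 0.38, HISAT2 2.2.1, featureCounts and the build GRCm38 are named in the submitters' processing notes. The sources used here name no strand setting, annotation release or rule for reads that match several places. The authors deposited whole-number read counts per Ensembl gene, not normalized. Symbols and chromosomes came from GENCODE M21, and promoters from RefSeq (GRCm38.p6).

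All 18 libraries were fitted as 6 groups with edgeR 4.0.16 (R 4.3.3): filterByExpr (minimum count 10, minimum total 15), TMM, robust quasi-likelihood F-test, Benjamini-Hochberg adjustment over 13150 genes, threshold 0.05. The common biological coefficient of variation was 0.18. Every adjusted p is from this test unless another is named. CPM are counts over the library total times 1e+06, and SDs are over 3 libraries. The labels call the triplicates biological without naming animals, so p-values measure the spread between these libraries. In counts simulated for this comparison (12791 genes tested), 3.12%, 59.4% and 87.5% of 64 genes each changed by 1.41-, 2- and 4-fold were recovered. All other genes were set equal between the groups there, whereas 41.1% of autosomal genes were called in the data. The adjusted p threshold is harder to pass when few genes change, so these shares do not give the recovery in the data.

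Same-numbered 0 h and 72 h libraries did not deviate together over 8649 genes (r = -0.0458, 0.0323 and -0.0335), so the numbers were not taken as pairs. The members and gene lists were chosen with earlier results of these data known. Named genes are the sort checks, the 12 largest differences each way, up to 4 members of each list by adjusted p in each direction and up to 2 list members with the smallest difference; others were named after their values were seen. Some genes are not reported here. Alternatives were size factors (RLE, library totals, DESeq2 1.42.0), no filter, 6 libraries only, a replicate block, limma 3.58.1 voom, features removed, an effect size and leaving out each library.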

Additional observations from a re-analysis of the deposited data

How the results depend on the processing

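The counts of genes called stayed within 1.5 times of 2463 higher and 2751 lower under every alternative except the effect size, where 1177 and 1584 differed by at least 2-fold. With a replicate block, 2469 were higher and 2746 lower, and same-numbered libraries correlated at -0.0458, 0.0323 and -0.0335. Leaving out each library gave 2038 to 2299 higher and 2400 to 2576 lower. DESeq2 gave 2636 and 2801, limma voom 2574 and 2907, no filter 2529 and 2487, and the 6 libraries alone 2388 and 2624. Scaling by library totals alone moved the median of all autosomal genes by 0.0845 and gave 2925 and 2459, so that 54.3% of calls were higher in place of 47.2%. No named gene changed sign at a call, and 54 changed call under at least 1 alternative. G2 and M phase (32 lower), histone (38 lower) and ribosome biogenesis (28 higher) counts were the same under each fit, the effect size apart, where ribosome biogenesis had 27. S phase had 30 lower under each fit, and 21 at 2-fold. With 3394929 counts in the smallest library, genes of a few CPM are imprecise. In simulated counts 59.4% of 2-fold changes were recovered, but few genes were changed there, so this is not the share recovered in the data.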
